A study of Mus musculus with 6 samples.

Results

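The interleukin 1 (IL-1) family was examined in the corneal epithelium through 10 genes, *Il1a*, *Il1b*, *Il33*, *Il18*, *Il1rn*, *Il1r1*, *Il1rap*, *Il1r2*, *Il1rl1* and *Sigirr*. They were picked by gene symbol, by a rule that names no measured value although earlier results of these samples were known, from a table of 17554 coding genes, and each had a row. The table held bulk RNA-seq of corneal epithelial cells from 6 mice of 2 months of age, 3 of them *Krt14-Cre; Rela f/f* and 3 of them controls. The mutant mice carried floxed *Rela* alleles, called Rela-/- in the sample labels, and the *Krt14-Cre* transgene. Cre driven by the keratin 14 promoter acts in epithelia that use this promoter, including limbal and conjunctival epithelium, and it is not known to act in stromal cells or leukocytes. Whether the control mice carried Cre or floxed alleles, and the sex of the mice, were not given in the sources used here. *Rela*, the gene for the NF-κB subunit RelA, stood at 36.5, 34.7 and 33.4 FPKM (read density corrected for transcript length and sequencing depth) in the control samples and at 4.93, 5.53 and 5.72 FPKM in the mutant samples.

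IL-1 family cytokines are alarm signals of barrier tissues. *Il1a*, *Il1b* and *Il33* encode agonists that bind receptors paired with the shared accessory chain IL1RAP, and the receptors recruit the adaptor MyD88 and activate NF-κB and MAP kinases. *Il18* encodes an agonist with a receptor pair of its own. The antagonist encoded by *Il1rn* occupies the receptor without signalling, *Il1r2* encodes a decoy receptor, and *Sigirr* encodes a receptor-like inhibitor. In the corneal epithelium IL-1α is stored in the cells and released on injury, and several of these genes are themselves known targets of NF-κB.

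Most of the agonist genes were higher in the mutant samples. *Il1a* rose 1.46-fold, *Il33* rose 2.33-fold and *Il1b* rose 10.4-fold, while *Il18* had nearly equal means in both groups. None of the 6 genes for the antagonist, the receptors and the inhibitor passed the test in either direction. A gene is said here to have risen or fallen where its adjusted p in the edgeR quasi-likelihood test was under 0.05, and 3 of the 10 genes passed this threshold, against 13.2% of the 12667 genes tested. Among the 3, *Il1b* could be tested only because it was high in the mutant samples, so its place in the count carries no weight. All 3 were higher, against 7.82% of the tested genes that were higher, and 0 were lower, against 5.42%. None of the 10 met the stricter definition of differential expression, an adjusted p of at most 0.001 with a fold change of at least 2, which 1.37% of the tested genes met. At an unadjusted p under 0.05, 4 of the 10 passed, against 28.1% of all genes, and DESeq2 placed 2 of them, *Il1b* and *Il33*, within the stricter definition. The median log2 fold change of the 10 genes was 0.19, beside 0.00 over all tested genes. The count of 3 fell to 1, with *Il1a* alone left, when control sample 1, control sample 2 or control sample 3 was left out, and stayed at 3 without mutant sample 1, mutant sample 2 or mutant sample 3.

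**Figure D1:**
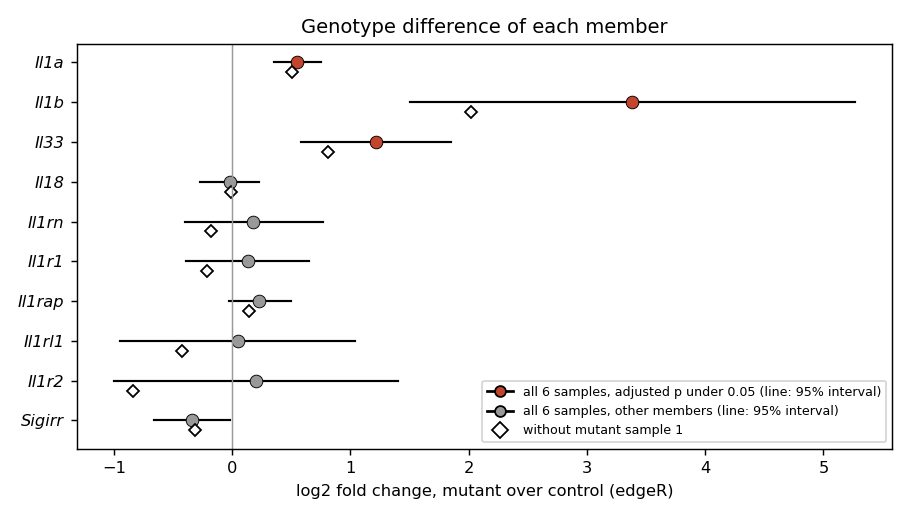
Log2 fold change of the mutant against the control samples for each of the 10 genes, with 95% intervals from the edgeR quasi-likelihood fit on 3 samples per group. The intervals of *Il1a*, *Il33* and *Il1b* lie to the right of 0 and these genes passed the adjusted threshold. That of *Sigirr* lies to the left of 0, and its adjusted p was 0.15.

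The levels of the 10 genes spanned a wide range. On the FPKM scale, which corrects for transcript length, *Il18* was the highest of the 10 genes in the control epithelium, with a mean of 92.8 FPKM (SD 10.05, n = 3). Among the 10 it was followed by *Il1a* with 28.5 FPKM (SD 2.53) and *Il1rn* with 8.14 FPKM (SD 1.97). *Sigirr* (3.98 FPKM), *Il1r1* (2.96 FPKM), *Il1rap* (2.88 FPKM), *Il33* (1.86 FPKM) and *Il1r2* (1.61 FPKM) formed the middle of the order. *Il1b* (0.127 FPKM) and *Il1rl1* (0.0933 FPKM) were near the limit of detection. The control values of neighbouring genes in this order overlapped for *Il1r1* and *Il1rap*, for *Il33* and *Il1r2*, and for *Il1b* and *Il1rl1*, and the other neighbours were separated. In the mutant samples *Il18* (91.7 FPKM), *Il1a* (42.0 FPKM) and *Il1rn* (9.25 FPKM) kept the first places among the 10 genes and *Il33* came next with 4.35 FPKM. Mutant values overlapped between all neighbours except *Il18* and *Il1a*, *Il1a* and *Il1rn*, and *Il1b* and *Il1rl1*.

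**Figure D2:**
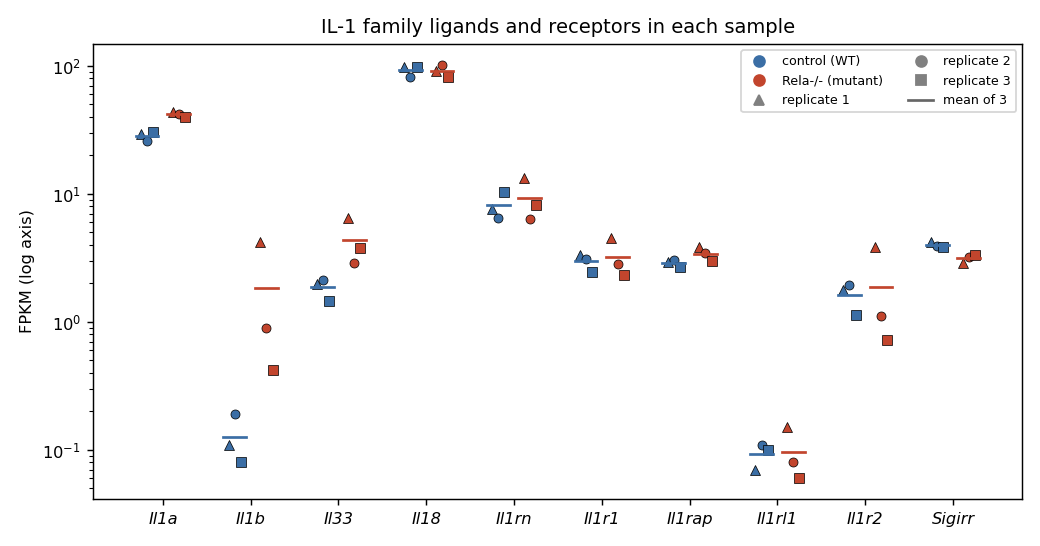
FPKM of each of the 10 genes in every sample on a log axis, with a bar at the mean of each group of 3. *Il18* lies near 92 FPKM in both groups, *Il1a* and *Il33* are higher in all mutant samples, and the *Il1b* mutant values spread from 0.42 to 4.19 FPKM.

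*Il1a* encodes IL-1α, which is active without cleavage and acts as an alarm signal when epithelial cells are damaged. It lies on the minus strand of chromosome 2 at 129299609 to 129310877 (GRCm38). *Il1a* had 1150, 1012 and 1203 expected counts in the control samples against 1707, 1656 and 1579 in the mutant samples, which is 29.2, 25.7 and 30.6 FPKM against 43.9, 42.3 and 39.8 FPKM. All mutant values were above all control values, and neither group held a sample far from the other samples of its group. The mutant samples exceeded the controls by 0.55 on the log2 scale (SE 0.09, 95% interval 0.35 to 0.75) with an adjusted p of 0.0041 in the edgeR test. Without mutant sample 1 it was 0.51 with an adjusted p of 0.0059. Of the exon bases of *Il1a*, 11.2% overlap the gene model *Gm14023*, and the sources used here do not say whether counting used the strand.

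*Il33* encodes IL-33, a nuclear cytokine of barrier cells that is released on damage and signals through the receptor encoded by *Il1rl1*. It lies on the plus strand of chromosome 19 at 29925114 to 29960715. *Il33* had 100, 107 and 74 counts in the control samples against 322, 143 and 190 in the mutant samples, or 1.99, 2.14 and 1.45 FPKM against 6.45, 2.86 and 3.75 FPKM. The groups did not overlap, and mutant sample 1 was the highest. On the log2 scale the difference was 1.22 (SE 0.28, 95% interval 0.58 to 1.85, adjusted p 0.021). It was 0.81 with an adjusted p of 0.018 when mutant sample 1 was left out. Without control sample 1, control sample 2 or control sample 3 the adjusted p was 0.059, 0.066 and 0.088, at log2 fold changes of 1.26, 1.32 and 1.09.

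*Il1b* encodes IL-1β, which is made as an inactive precursor, is cleaved by caspase 1 and is produced most strongly by myeloid cells. It lies next to *Il1a*, on the same strand of chromosome 2, at 129363842 to 129371170. *Il1b* had 4, 7 and 3 counts in the control samples, at or just above the detection limit of 3 counts, and 110, 25 and 14 counts in the mutant samples. Every mutant sample was above every control sample, and mutant sample 1 alone held 110 of the 149 mutant counts. The summed counts stood in a ratio of 10.6 (exact conditional 95% interval 6.12 to 19.9, for counting error only), and of 4.16 without mutant sample 1. The fitted log2 fold change was 3.38 (SE 0.84, 95% interval 1.5 to 5.27) with an adjusted p of 0.028 in the edgeR test, and 2.02 with an adjusted p of 0.027 without mutant sample 1. *Il1b* was the 1 gene of the 10 that passed the filter on low counts through the mutant group only. The adjusted p was 0.089, 0.091 and 0.11 without control sample 1, control sample 2 and control sample 3, and limma on log2(FPKM + 1) gave 1.10 with an adjusted p of 0.11.

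Values of leukocyte markers stand beside *Il1b* because it is a gene of myeloid cells. The 15 listed markers summed to 328.9 to 359.3 CPM (counts scaled to the library total) in the control samples and to 492.9, 345.0 and 275.4 CPM in mutant samples 1, 2 and 3, and most of this sum was *Itgam*. Of the 15, 10 passed 3 counts in any sample, and *Mpo*, *Cd207*, *Adgre1*, *Fcgr1* and *Cd79a* stayed at or under 3 counts in every sample. The 13 markers other than *Itgam* and *Cd68*, a subset chosen after its values were seen, summed to 8.56 to 10.3 CPM in the control samples and to 9.26 to 11.9 CPM in the mutant samples. Of the 15, 2 were higher without overlap, beside 17.3% of the tested genes. Both were too low to be tested, so that this share is not taken over like genes. The 2 markers were *Fcgr1*, at no more than 2 counts, and *Lyz2*, a gene of myeloid cells that was named after its values were seen. The 1 marker lower without overlap, beside 16.4% of the tested genes, was *Ly6g*, also named after its values were seen. *Ly6g* had 56.4, 37.8 and 70.7 expected counts in the control samples against 31.0, 33.3 and 35.2 in the mutant samples (log2 fold change -0.74, edgeR adjusted p 0.095). *Lyz2* had 0, 0 and 1 counts in the controls against 23.7, 13 and 3.79 expected counts in mutant samples 1, 2 and 3, the same order of samples as for *Il1b*, and was too low to be tested. None of the 5 leukocyte markers that could be tested passed the threshold. The part of these markers in the *Il1b* result was not tested. In bulk samples, more cells of a type and more RNA per cell cannot be told apart.

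The sequences just upstream of the start sites are shown for the 3 of the 10 genes that rose, since the same short motif stands at a like position in all of them. They are the 100 bases before an annotated start, from RefSeq on GRCm38.p6, in the direction of transcription. The TATA motif (TATAAA) and, in *Il1a*, the AP-1 motif (TGANTCA) are in capitals. The windows are chr2:129309973-129310072 on the minus strand for *Il1a*, chr2:129371140-129371239 on the minus strand for *Il1b*, and chr19:29945690-29945789 on the plus strand for the second annotated start of *Il33*.
Il1a: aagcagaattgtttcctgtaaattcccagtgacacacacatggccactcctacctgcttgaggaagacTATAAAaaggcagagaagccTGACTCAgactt
Il1b: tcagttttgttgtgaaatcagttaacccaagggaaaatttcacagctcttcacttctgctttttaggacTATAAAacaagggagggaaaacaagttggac
Il33, second start: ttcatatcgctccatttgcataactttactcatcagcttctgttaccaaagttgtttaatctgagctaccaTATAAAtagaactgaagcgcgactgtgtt

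TATAAA on the coding strand began 32 bases before the start in *Il1a*, 31 bases before it in *Il1b* and 29 bases before it at the second start of *Il33*, while the first start of *Il33* had no match at that distance. Of 32851 RefSeq promoter windows, each covering 250 bases before to 50 bases after a start, 8.32% held TATAAA, and 1.75% held it 35 to 25 bases before the start. RefSeq windows were given for 9 of the 10 genes, 14 windows in all, and the other 6 genes with a window did not have the motif at that distance. Neither did *Il1f8*, *Il1f9* and *Il18rap*, further genes of the family that rose, and no window was given for *Il1f6*, which also rose. This is a description of a handful of genes whose expression values were known, and it was not tested. Among the 14 windows of the 9 genes, AP-1 motifs on either strand were found in 1 window each of *Il1a* and *Il1rn*. They began 12 bases before the start in *Il1a* and 141 bases before it in *Il1rn*, and 7.81% of all windows held this motif. A match to the κB consensus was found in 1 of the 14 windows, that of the second start of *Il1r1*, 232 bases before it, against 8.46% of all windows. Windows of this size hold only a part of the sequence around a gene.

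*Il18* encodes an agonist that epithelial cells store as an inactive precursor. It lies on chromosome 9 at 50554705 to 50581841. *Il18* stood at 98.6, 81.2 and 98.6 FPKM in the control samples and at 90.6, 102 and 82.5 FPKM in the mutant samples. The ranges of the groups overlapped almost fully. The log2 fold change was -0.02 with a 95% interval of -0.27 to 0.23 (edgeR adjusted p 0.94).

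*Il1rn* encodes the receptor antagonist and lies on chromosome 2 at 24336860 to 24351491. It had 369, 312 and 497 expected counts in the control samples against 639, 308 and 396 in the mutant samples, or 7.61, 6.49 and 10.3 FPKM against 13.3, 6.37 and 8.12 FPKM. Mutant sample 1 was the highest of the 6 and mutant sample 2 the lowest, and the groups overlapped. For *Il1rn* the log2 fold change was 0.18 (95% interval -0.4 to 0.77, edgeR adjusted p 0.69) and turned to -0.18 without mutant sample 1. The FPKM ratio of *Il1rn* to *Il1a*, antagonist to agonist, was 0.261, 0.253 and 0.337 in the control samples against 0.303, 0.151 and 0.204 in the mutant samples. The difference of the log2 ratios was -0.42 with a two-sided exact permutation p of 0.3, where 3 samples against 3 cannot give a p below 0.1.

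*Il1r1* encodes the signalling receptor for IL-1α and IL-1β, and *Il1rap* encodes the accessory chain it needs. *Il1r1* stood at 3.32, 3.12 and 2.45 FPKM in the control samples and at 4.55, 2.84 and 2.32 FPKM in the mutant samples, so that the mutant group held both the highest and the lowest value. Its log2 fold change was 0.13 (95% interval -0.39 to 0.65, edgeR adjusted p 0.75), and -0.21 without mutant sample 1. *Il1rap*, on chromosome 16 at 26581683 to 26730128, stood at 2.91, 3.03 and 2.69 FPKM in the control samples and at 3.82, 3.43 and 2.98 FPKM in the mutant samples. Only mutant sample 3 lay within the control range. The log2 fold change of *Il1rap* was 0.23 (95% interval -0.03 to 0.5, edgeR adjusted p 0.23). The table sums the isoforms of a gene, so membrane and soluble forms of *Il1rap* and of *Il1rl1* were not separated, and 4.86% of the exon bases of *Il1rap* overlap *Gm20319*.

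*Il1rl1* encodes ST2, the receptor for IL-33. It was hardly detected, with 6.85, 11.1 and 10.4 expected counts in the control samples against 15.2, 7.73 and 6.25 in the mutant samples. The groups overlapped, and all values lay between 0.06 and 0.15 FPKM. The log2 fold change of 0.05 had an interval of -0.95 to 1.04 (edgeR adjusted p 0.96), which spans changes of nearly 2-fold in either direction. *Il33*, the gene for its ligand, rose in the same samples.

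*Il1r2* and *Sigirr* encode the brakes at the receptor. *Il1r2*, the decoy receptor gene, had 50, 54 and 30 counts in the control samples against 103, 31 and 19 in the mutant samples, or 1.76, 1.94 and 1.14 FPKM against 3.81, 1.11 and 0.72 FPKM. Mutant sample 1 was above all controls and the other mutant samples were below all of them in FPKM. For *Il1r2* the log2 fold change was 0.20 (SE 0.54, 95% interval -1.0 to 1.4, edgeR adjusted p 0.85) and became -0.84 with an adjusted p of 0.13 without mutant sample 1. The FPKM ratio of *Il1r2* to *Il1r1* was 0.530, 0.622 and 0.465 in the control samples against 0.837, 0.391 and 0.310 in the mutant samples, with a two-sided exact permutation p of 0.7.

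*Sigirr*, on the minus strand of chromosome 7 at 141091169 to 141100605 had lower counts in the mutant samples. It had 155, 125 and 122 counts in the control samples against 99, 104 and 115 in the mutant samples, or 4.19, 3.91 and 3.84 FPKM against 2.90, 3.19 and 3.33 FPKM. All mutant values were below all control values, as for 16.4% of the tested genes. The log2 fold change was -0.34 (SE 0.14, 95% interval -0.66 to -0.02), with an unadjusted p of 0.039 and an adjusted p of 0.15 in the edgeR test, which did not pass the threshold. Non-overlapping groups in the other direction were seen for *Il1a*, *Il33* and *Il1b*, beside 17.3% of the tested genes.

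Mutant sample 1 held the highest value of the 6 samples for 8 of the 10 genes, all but *Il18* and *Sigirr*, beside 22.8% of the tested genes. The log2 fold changes of *Il1rn*, *Il1r1*, *Il1r2* and *Il1rl1* were above 0 with this sample and below 0 without it. *Il1a*, *Il33* and *Il1b* passed the threshold with and without it. Levels of stromal markers differed between the same samples, with a summed level of 1.02 to 1.62 CPM in the control samples and of 11.3, 6.64 and 2.64 CPM in mutant samples 1, 2 and 3. The gene with the highest count among these 10 markers was *Dcn*. It had 3, 2 and 1 counts in the control samples against 66, 34 and 14 in the mutant samples. *Dcn* rose (edgeR adjusted p 0.0051) and was at least 12.7-fold higher, computed against 3 counts per library. It passed the filter on low counts only through the mutant group, where it is high, so that it had to differ. Of the 10 markers, 9 passed 3 counts in any sample, and *Kera*, which defines keratocytes, stayed at or under 2 counts. Without overlap, 4 were higher, beside 17.3% of the tested genes. Of these 4 only *Dcn* had enough counts to be tested, so that this share is not taken over like genes. The part of these markers in the result was not tested.

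**Figure D3:**
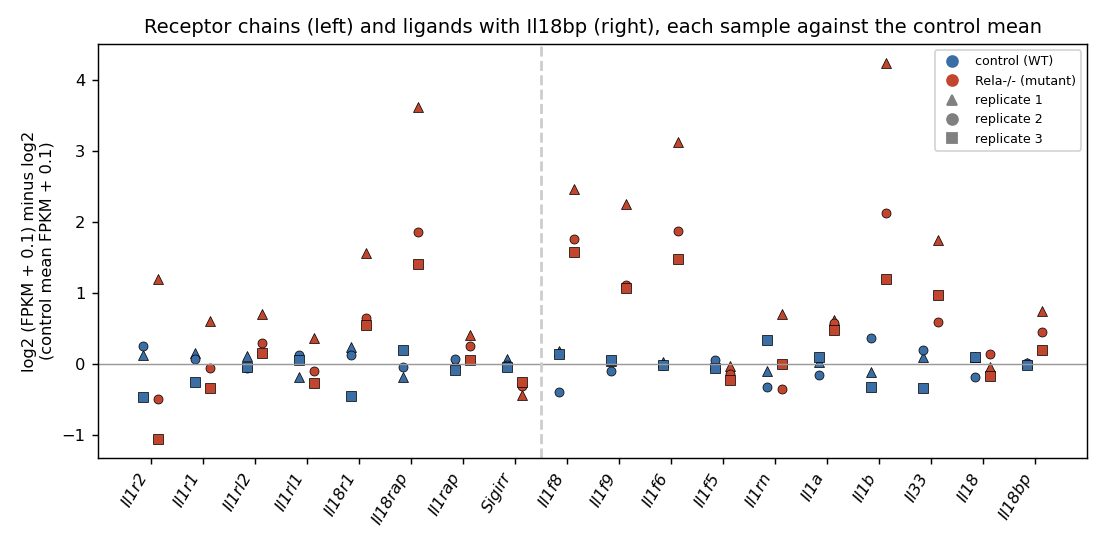
Log2 ratio of each sample to the control mean, on FPKM + 0.1, for the 10 genes and the 8 other IL-1 family genes that were tested. Mutant sample 1 (red triangles) holds the highest values for most genes, with *Il1b* at 4.24 in it against 2.13 and 1.2 in the other mutant samples.

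The family is arranged in clusters along the genome. *Il1r2*, *Il1r1*, *Il1rl2*, *Il1rl1*, *Il18r1* and *Il18rap* lie in this order within 468.4 kb of chromosome 1 (40083308 to 40551707), and all 6 were highest in mutant sample 1. Their log2 fold changes ran from 0.05 for *Il1rl1* to 5.55 for *Il18rap*, and only *Il18rap* passed the threshold. On chromosome 2, *Il1f8*, *Il1f9*, *Il1f6*, *Il1f5*, *Il1f10* and *Il1rn* lie within 198.3 kb (24153172 to 24351491). In this cluster the agonist genes *Il1f8*, *Il1f9* and *Il1f6* rose, whereas the antagonist genes *Il1f5* and *Il1rn* did not pass the threshold. *Il1a* and *Il1b*, which both rose, lie within 71.6 kb of each other's outer ends further along chromosome 2.

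The remaining IL-1 family genes had 11 rows in the table, of which 8 had enough counts to be tested, and 4 of these rose and 0 fell, beside 7.82% and 5.42% of all tested genes. Among the 4, *Il18rap* passed the filter on low counts only through the mutant group, where it is high, so that it had to differ. *Il1f6*, *Il1f8* and *Il1f9* encode IL-36α, IL-36β and IL-36γ, agonists of skin and mucosal epithelium. *Il1f9* was the most abundant of them and had 827, 739 and 828 expected counts in the control samples against 3808, 1731 and 1691 in the mutant samples. Its mean rose from 24.9 to 75.2 FPKM, a log2 fold change of 1.59 (SE 0.29, edgeR adjusted p 0.0061), and without mutant sample 1 the log2 fold change was 1.08. *Il1f8* had 85, 56 and 82 counts against 413, 255 and 226, and *Il1f6* had 23, 22 and 22 against 208, 86 and 66. For these genes, too, the groups did not overlap and mutant sample 1 was the highest. The log2 fold changes were 2.00 (adjusted p 0.0011) for *Il1f8* and 2.42 (adjusted p 0.0061) for *Il1f6* in the edgeR test, and without mutant sample 1 that of *Il1f6* was 1.75. The mean log2 fold changes of these 3 genes were thus all above that of *Il1a* (0.55), a difference between genes that was not tested.

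*Il18rap*, which encodes the accessory chain of the IL-18 receptor, had 0, 1 and 2 counts in the control samples against 114, 28 and 15 in the mutant samples. The ratio of the summed counts was 52.0 (exact conditional 95% interval 17.5 to 255, for counting error only), and the edgeR adjusted p was 0.0095. Without mutant sample 1 the ratio was 21.4 and the adjusted p 0.0039. *Il1f5*, which encodes the IL-36 receptor antagonist, was at -0.14 on the log2 scale (adjusted p 0.55). The other genes tested did not pass the threshold: *Il1rl2*, the IL-36 receptor gene, was at 0.39 (adjusted p 0.092), *Il18r1*, the IL-18 receptor gene, at 0.92 (adjusted p 0.06), and *Il18bp*, whose product binds and neutralizes IL-18, at 0.49 (adjusted p 0.15). *Il1f10*, *Il1rapl1* and *Il1rapl2* were too low to be tested.

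Genes that process or release IL-1 family cytokines had 17 rows, and 2 of the 13 tested rose and 0 fell, near the 13.2% of all genes past the threshold, with a median log2 fold change of 0.13. *Casp4*, counted among the 2, passed the filter on low counts only through the mutant group. *Gsdma* encodes a pore-forming gasdermin of epithelium. It had 19, 15.3 and 39 expected counts in the control samples against 261, 154 and 181 in the mutant samples, without overlap, and its log2 fold change was 3.02 (SE 0.33, edgeR adjusted p 0.00046), which met the definition of differential expression. *Casp4*, which encodes an inflammatory caspase, had 0 counts in every control sample and 64, 19 and 13 in the mutant samples. It was at least 10.7-fold higher, computed against 3 counts per library (edgeR adjusted p 0.011), and at least 5.31-fold higher without mutant sample 1. *Casp1*, whose product cleaves the IL-1β and IL-18 precursors and which was named after its values were seen, had 9, 4 and 5 counts against 54, 23 and 8 and was too low to be tested. The count of 2 was 4 with DESeq2, with no filter on low counts and without mutant sample 3, and 1 where each sample had to reach 10 counts.

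Signalling genes downstream of the receptors had 25 rows, all tested, with 2 higher, 2 lower and a median log2 fold change of 0.02. These 4 of 25 are near the 13.2% of all tested genes that passed the threshold. *Myd88*, the shared adaptor gene, rose from 20.8 to 26.0 FPKM, a log2 fold change of 0.32 (edgeR adjusted p 0.031, and 0.051 without mutant sample 1). *Map3k8*, which encodes a kinase upstream of ERK, rose with a log2 fold change of 0.82 (adjusted p 0.0019). *Peli2*, which encodes a ubiquitin ligase of the receptor complex, fell by 0.54 on the log2 scale, with an adjusted p of 0.0074, and *Map2k6*, which encodes a kinase upstream of p38, fell by 0.54 (adjusted p 0.04). The other 21 did not pass the threshold. The count of 4 was 2 without control sample 2, control sample 3, mutant sample 2 or mutant sample 3.

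Genes known to respond to IL-1 had 21 rows and 15 tested genes, of which 11 rose, 2 fell and 2 did not pass the threshold, beside 13.2% of all tested genes past it, with a median log2 fold change of 2.03. Of the 15, 6 had fewer than 10 counts in every control sample. They passed the filter on low counts through the mutant group only, so that they had to differ. *Icam1*, named after its values were seen, had 11, 3 and 0 counts in the control samples against 24, 15 and 37 in the mutant samples. It too passed the filter only because of the mutant samples, so its place among the genes that rose carries no weight. The list was chosen with earlier results of these samples known. *Ptges*, a prostaglandin E synthase gene, stood at 3.85, 2.97 and 2.71 FPKM in the controls and rose to 13.5, 10.9 and 14.8 FPKM in the mutants (log2 fold change 2.03, edgeR adjusted p 3.6e-05). *Zc3h12a*, which encodes an RNase that limits cytokine transcripts, rose from 14.8 to 29.3 FPKM (log2 fold change 0.99, adjusted p 0.00031). *Tslp*, an epithelial cytokine gene, had 10 counts in each control sample and 41, 28 and 52 in the mutant samples (log2 fold change 1.99, adjusted p 0.003). In these 3 genes the groups did not overlap.

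*Ptgs2*, which encodes the inducible cyclooxygenase, had 3, 1 and 0 counts in the control samples against 670, 133 and 575 in the mutant samples. The ratio of the summed counts was 345 (exact conditional 95% interval 135 to 1269, for counting error only, edgeR adjusted p 0.00046). *S100a8* and *S100a9* encode the subunits of calprotectin. *S100a8* had 1, 0 and 2 counts against 1858, 349 and 228, a ratio of summed counts of 807 (exact conditional 95% interval 276 to 3914, for counting error only, edgeR adjusted p 0.0023). *S100a9* had 29, 33 and 63 counts against 13515, 2646 and 1966 (log2 fold change 7.18, edgeR adjusted p 0.0008). *Ptgs2* and *S100a8* are among the 6 genes with fewer than 10 counts in every control sample. These passed the filter on low counts through the mutant group only, so that they had to differ. Without mutant sample 1 the ratio for *S100a8* was 287 and the log2 fold change of *S100a9* was 5.77. As in *Il1b*, mutant sample 1 was the highest in all 3, but in *Ptgs2* mutant sample 3 was close to it and mutant sample 2 was the lowest. The 2 genes of the list that fell, named because of that count, encode inhibitors of NF-κB. *Nfkbia*, the gene for IκBα, fell by 0.34 on the log2 scale, with an adjusted p of 0.028, and *Tnfaip3*, the gene for A20, fell by 1.04 (adjusted p 0.0034), both in the edgeR test. The count of 13 was 12 without mutant sample 1 (10 higher and 2 lower of 16 tested) and 6 where at least 10 counts were required in every sample.

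**Figure D4:**
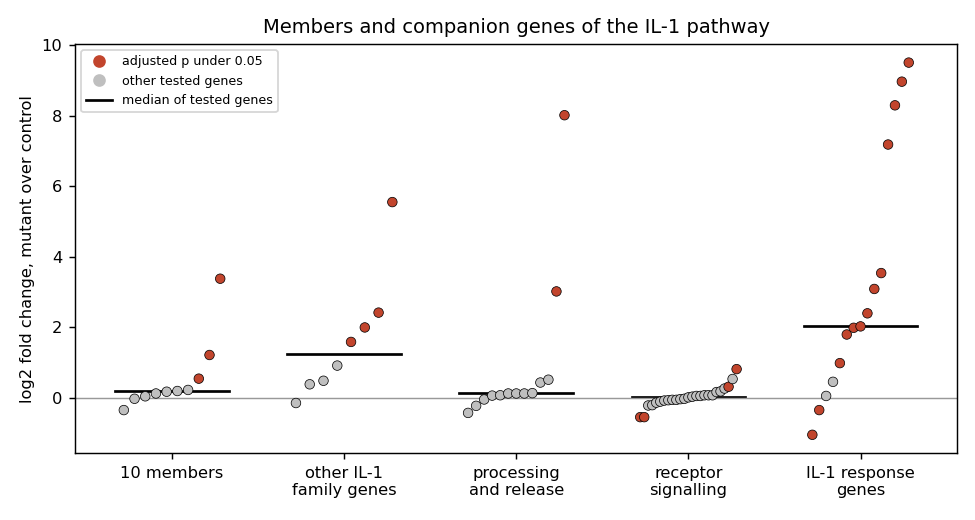
Log2 fold changes, mutant against control, of the tested genes of each list, with filled points for genes past an adjusted p of 0.05 in the edgeR test and a bar at the list's median. Medians were 0.19 for the 10 genes, 1.25 for the other family genes, 0.13 for processing and release, 0.02 for receptor signalling and 2.03 for the IL-1 response genes.

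The expected counts of a sample summed to between 19492942 and 19733834. At this depth 3 counts equal 0.152 to 0.154 CPM before TMM scaling, a limit that covers counting error only. All 10 corneal epithelial markers were detected, with summed levels of 89230 to 99000 CPM in the control samples and of 83100 to 88390 CPM in the mutant samples, with *Krt12* the highest. Within this list 2 genes rose and 1 fell, beside 7.82% and 5.42% of all tested genes, all 3 named after their values were seen. *Krt14*, a keratin gene of basal cells whose promoter drives the Cre, rose from 178 to 1753 FPKM (edgeR adjusted p 1.1e-05), *Clu* rose 2.35-fold (adjusted p 9.1e-05) and *Aldh3a1*, a corneal crystallin gene, fell by 0.25 on the log2 scale, with an adjusted p of 0.047 (0.086 without mutant sample 1). Conjunctival markers, led by *Muc4*, summed to 12160 to 13610 CPM in the control samples and to 11030 to 14850 CPM in the mutant samples. Without *Muc4* the sums were 2249 to 2630 CPM against 1664 to 1973 CPM and did not overlap. Of the 6 markers 3 were lower without overlap, beside 16.4% of the tested genes. *Krt13* (adjusted p 0.015) and *Krt8* (adjusted p 0.01), named after their values were seen, fell in the edgeR test, beside 5.42% of the tested genes. Mast cell markers, almost all of them *Kit*, summed to 267.7 to 330.2 CPM against 233.5 to 308.1 CPM. Vessel markers, led by *Pecam1*, summed to 0.202 to 0.627 CPM against 0.617 to 0.898 CPM. Apart from leukocyte and stromal markers, whose values are given above with *Il1b* and with mutant sample 1, no marker list was set beside a single family gene, and the part of these changes in the family's values was not tested.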

How the data were processed

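Corneal epithelial RNA of 3 control and 3 mutant mice was measured. The authors filtered single-end 50-base reads with SOAPnuke, aligned them with Bowtie2 2.2.5 and made the deposited expected counts with RSEM 1.2.12, not normalized and not pooled. The authors also deposited FPKM values per sample. Tool versions come from the submitters' processing notes, which name another genome build than the GRCm38 coordinates of the table. Deposited fold changes, p-values and group means were not used.

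Expected counts, of which 31.5% to 32.2% were not whole, were rounded and tested with edgeR 4.0.16 in R 4.3.3 (TMM, filterByExpr at 10 counts and 15 in total, quasi-likelihood test), and p-values of the 12667 genes tested were adjusted by Benjamini-Hochberg. Standard errors were taken as the log2 fold change divided by the root of F. DESeq2 1.42.0, limma 3.58.1 on log2(FPKM + 1) and log2(FPKM + 0.1), other scalings and filters, a block for the replicate number and leaving out each sample were alternatives. Ratios of summed counts without mutant sample 1 were added after seeing the data. The scripts were tested on simulated data. Of the 17554 genes, 17434 matched RefSeq by identifier. Markers and IL-1 genes for which no row was used (*Il6*, *Ccl20*, *Defb4*, *Elane*, *Ctsg*, *Gzmb*, *Tpsb2*, *Cma1*, *Fcer1a*, *Emcn*, *Lyve1*, *Tff1*) were not analysed here.

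The 10 genes and all lists were chosen with earlier results of these data known. Named genes are the 10 genes, *Rela*, for each further list those past the threshold, or the 6 with the smallest adjusted p, and the marker of each list with the highest count. Others were named after their values were seen.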

Additional observations from a re-analysis of the deposited data

How the results depend on the processing

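*Il1a* kept its call in 14 of 14 alternatives, with log2 fold changes of 0.47 to 0.62. *Il1b* and *Il33* kept their direction in all that gave a value and lost the call in 4 of 13 and 3 of 14, respectively. The number of the 10 genes past the threshold was 1 to 3 with single samples left out, and DESeq2 called 2 of them differentially expressed in place of 0. For processing and release the count of 2 became 4 with DESeq2, 4 with no filter, 1 where each sample had to reach 10 counts and 2 to 4 with single samples left out. It was 2 to 4 for receptor signalling with single samples left out. For the IL-1 response genes it was 6 under that requirement, under which *Il1b* and *Il1rl1* could not be tested, and 10 to 14 with single samples left out. The signs of genes that did not pass the threshold turned in places. Without mutant sample 1 the log2 fold change was -0.18 for *Il1rn*, -0.21 for *Il1r1*, -0.84 for *Il1r2* and -0.42 for *Il1rl1*. *Il1r2* was also at -0.09 in limma on log2(FPKM + 0.1), at -0.01 with the replicate block and at -0.01 without control sample 3, and *Il1rl1* was at -0.13 without control sample 1. *Il18* was at 0.02, 0.04 and 0.06 without control sample 1, control sample 3 and mutant sample 3. With single samples left out the log2 fold change ranged from -0.18 to 0.41 for *Il1rn*, from -0.21 to 0.34 for *Il1r1*, from -0.84 to 0.60 for *Il1r2*, from -0.42 to 0.31 for *Il1rl1* and from -0.12 to 0.06 for *Il18*. The difference of the log2 *Il1r2* to *Il1r1* ratios ranged from -0.62 to 0.10 with single samples left out. The cause of these changes was not tested.

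Same-numbered samples of the groups did not deviate together (correlations of 0.019, 0.048 and -0.046). These correlations cannot show whether same-numbered mice were paired, and the sources used here do not say. With the replicate block 3 of the 10 genes passed the threshold, and the block changed no call among them. Low counts limit *Il1b* and *Il1rl1* most.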
